A study of Mus musculus with 12 samples.

Results

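Interferon-stimulated genes and the genes of antigen processing they overlap with were followed in kidneys of mice given cannabidiol (CBD) or its vehicle. The list holds 39 genes, chosen by name from the interferon response and from the class I antigen processing machinery, out of 57180 genes in the count tables. A gene was kept when it had at least 10 counts in at least 4 libraries, and 38 of the 39 were. The gene not kept was Oas3, which had 68 counts over all 12 libraries and reached 10 counts in 1. By role, the list holds 4 nucleic acid sensors (Rigi, Ifih1, Dhx58, Zbp1), 4 transcription factors (Irf1, Irf7, Irf9, Stat2), 4 IFIT proteins (Ifit1, Ifit2, Ifit3, Ifit3b) and 6 genes of the OAS family and PKR (Oas1a, Oas2, Oas3, Oasl1, Oasl2, Eif2ak2). A further 8 are GTPases and membrane or restriction factors (Mx1, Mx2, Gbp2, Gbp3, Bst2, Ifitm3, Rsad2, Samd9l), and 6 belong to the ISG15, TRIM25 and PARP group (Isg15, Usp18, Trim25, Parp9, Parp14, Dtx3l). The last roles are antigen processing with 3 genes (Psmb8, Psmb9, Tap1) and 4 other induced genes (Ifi27, Ifi35, Ifi44, Xaf1).

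The study used 12 male C57BL/6J mice in 3 groups of 4, each mouse giving 1 kidney RNA-seq library. All mice were 60 days old at the start and were injected intraperitoneally every day for 28 days. Control mice received saline with 2% Tween 80, the 10CBD group received 10 mg CBD per kg body weight in that vehicle, and the 20CBD group received 20 mg per kg. Polyadenylated RNA was sequenced in pairs of 150-base reads, and both comparisons of CBD, a cannabinoid of the hemp plant, with vehicle share the 4 control mice.

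Cells that sense viral or misplaced nucleic acid secrete interferons, whose receptors activate transcription factors that enter the nucleus and bind short promoter elements. The induced proteins block viral RNA and protein synthesis, trap virions, and trim and load peptides for display to T cells. In kidney, tubular, endothelial and immune cells can all respond, and low expression of many of these genes is seen in healthy tissue.

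The libraries held 15417867 to 23532088 counts assigned to genes, with a median of 20390000.5 in Control, 18827497.5 in 10CBD and 18106955 in 20CBD. Kidney markers were abundant in every library. Levels are given in CPM, counts scaled by library size with the trimmed mean of M values. Kap, an androgen-regulated proximal tubule gene, had a mean of 19410 CPM. Slc34a1, the proximal phosphate transporter, ranged from 2636 to 4070 CPM, and Umod, which encodes uromodulin of the thick ascending limb, from 384 to 799 CPM. One library property differed widely within groups. Mitochondrially encoded genes took 12.8%, 5.77%, 17.5% and 13.5% of the counts in the 4 control mice, 3.53%, 15.3%, 4.55% and 15.3% in the 10CBD mice and 20.6%, 23.4%, 5.54% and 14% in the 20CBD mice. The 4 libraries under 10% were Control 2, 10CBD 1, 10CBD 3 and 20CBD 3, so each group has at least 1 of them and 10CBD has 2. They also had the highest share of reads in no annotated feature within their group, at 16.1%, 17%, 19.9% and 17.9%, against 12.1% to 16.3% in the other 8 libraries. The methods state a minimum RNA integrity for all samples but no value for each, and what set these libraries apart was not tested. For several named members, values without those libraries are also given.

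Most genes of the list sat in the middle of the kidney transcriptome. Per kilobase of exon, the 38 kept genes had a median level of 2.25 CPM per kb over the 12 libraries, against 2.19 CPM per kb for all 17163 genes tested, and 20 of the 38 were above that all-gene median. On this per-length scale Ifitm3, which encodes a membrane protein that hinders virus entry, was the most abundant of the list at 19.9 CPM per kb. Samd9l, a restriction factor of poxviruses, followed at 17.4 CPM per kb and Trim25, the ubiquitin ligase that modifies RIG-I, at 12.1 CPM per kb. These levels lie at percentiles 91, 89.8 and 85.5 of all genes tested. At the low end stood the synthetases that make the second messenger 2-5A, with Oas2 at 0.162, Oas1a at 0.125 and Oas3 at 0.0422 CPM per kb. Oas1a lay at percentile 3.46. Other well-known induced genes were also low, with the GTPase genes Mx2 at 0.328 and Mx1 at 0.181 CPM per kb, while Isg15, the ubiquitin-like modifier, had 4.51 CPM per kb. The spread among mice of a group was close to that of other genes, with a median within-group SD of 0.309 log2 units for the 38 genes and 0.291 for all genes. Mx1 (0.727), Oas2 (0.624) and Samd9l (0.517) varied most between mice of a group, and Stat2 (0.123), Rsad2 (0.157) and Irf9 (0.158) least.

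**Figure D1:**
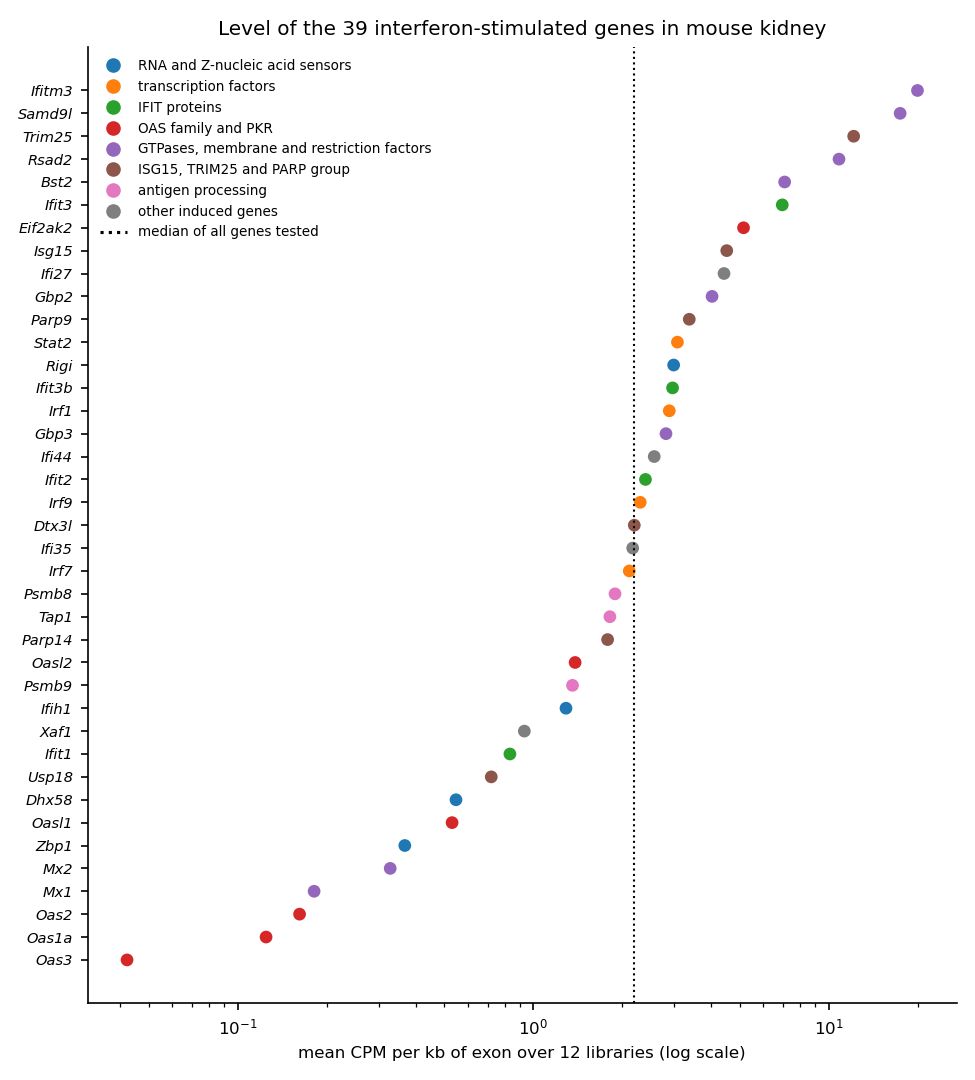
Mean level of each of the 39 genes over the 12 libraries in CPM per kb of exon on a log axis, coloured by role, with a dotted line at the median of all genes tested. Ifitm3, Samd9l and Trim25 lie highest and Oas2, Oas1a and Oas3 lowest, a span from 19.9 to 0.0422 CPM per kb.

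The interferons themselves were at or near 0. Ifnb1, Ifna1, Ifna4 and Ifna5 had 0 counts in all 12 libraries, which allows a level of up to 0.0132 CPM over the pooled libraries (3 counts of the total, counting error only). Ifna2 had 2 counts, Ifne 1, Ifng 5, Ifnl2 1 and Ifnl3 4, and the most counted ligand was Ifnk, interferon kappa, with 47. None of the 10 ligand genes searched had enough counts to be tested. Ifnk had 7, 6, 7 and 1 counts in the control mice, 5, 8, 5 and 2 in the 10CBD mice and 1, 0, 0 and 5 in the 20CBD mice. These counts are too few to test, and whether ligand RNA differed between groups was not tested.

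The first question was whether the lower dose altered the kidney transcriptome, and for these genes no member passed the test. Of the 38, 0 were called in 10CBD against Control by edgeR at an adjusted p under 0.1, against 0.0291% (5) of all genes tested. DESeq2 and limma-voom also called 0, and at an unadjusted p under 0.05 all of these tools counted 0 of the 38, against 5.67% of all genes by edgeR. The members' median log2 fold change was -0.045, beside 0.012 for all genes, with 16 above 0 and 22 below. Leaving out 1 mouse at a time, that median ranged from -0.078 to 0. No member separated the 4 treated mice from the 4 control mice without overlap, where 3.19% of all genes did. For 35 of the 38, the 95% confidence interval of the difference lay within 1 log2 unit on either side of 0, and the 3 with wider intervals were the low-count genes Oas1a, Mx1 and Oas2. In whole kidney RNA, fewer cells of a type and less RNA per cell cannot be told apart, here and in each comparison that follows.

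In 20CBD against Control, Ifit1, Ifit3 and Ifit3b had higher mean levels than in Control and Oas1a, Trim25 and Mx2 lower ones, but none of these differences passed the adjusted threshold and the groups overlapped for Ifit3, Oas1a and Trim25. The lowest log2 fold change of the 38 was that of Oas1a, at -0.91. edgeR called 0 of the 38 here, while 0.303% (52) of all genes were called, and DESeq2 and limma-voom called 0 as well. At an unadjusted p under 0.05, each of edgeR, DESeq2 and limma-voom counted 4 of the 38, and for edgeR these were 10.5% of the members against 8.45% of all genes, a share near that background. The 4 by edgeR were Oas1a and Trim25, lower, and Ifit1 and Ifit3, higher. The groups did not overlap for 3 members, against 5.3% of all genes: Ifit1 and Ifit3b with all 20CBD mice above all control mice, and Mx2 with all below. The members' median was 0.122, beside 0.015 for all genes, and 24 of the 38 (63.2%) were above 0, as were 52.5% of all genes. That median rested on few libraries: it was 0.013 without 20CBD replicate 3 and -0.006 without the 4 libraries of low mitochondrial share. The interval lay within 1 log2 unit of 0 for 32 members, the exceptions being Oas1a, Mx2, Ifi35, Mx1, Zbp1 and Oas2.

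Between the doses, edgeR called 0 of the 38, as it did for all genes (0%). DESeq2 and limma-voom called 0 members. At an unadjusted p under 0.05 there was 1 member by edgeR (Ifitm3, against 6.31% of all genes), 1 by DESeq2 and 0 by limma-voom. No member separated the groups, and 3.1% of all genes did. The members' median was 0.064, beside -0.003 for all genes, and was -0.018 without 20CBD replicate 2. DESeq2 gave no adjusted p for 8 members here, 2 at 10 mg/kg and 0 at 20 mg/kg, since it sets genes of low mean count aside.

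Taking the mean of both doses against Control, 0 of the 38 were called by edgeR, against 0.14% (24) of all genes, and 0 by DESeq2 and limma-voom. The unadjusted p was under 0.05 for 4 members by edgeR (Oas1a, Trim25 and Mx2 lower, Ifit1 higher), for 3 by DESeq2 and for 4 by limma-voom, where edgeR gave 7.04% of all genes. The smallest adjusted p of any member was 0.872 at 10 mg/kg, 0.42 at 20 mg/kg, 0.782 between the doses and 0.619 for the mean of both doses.

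**Figure D2:**
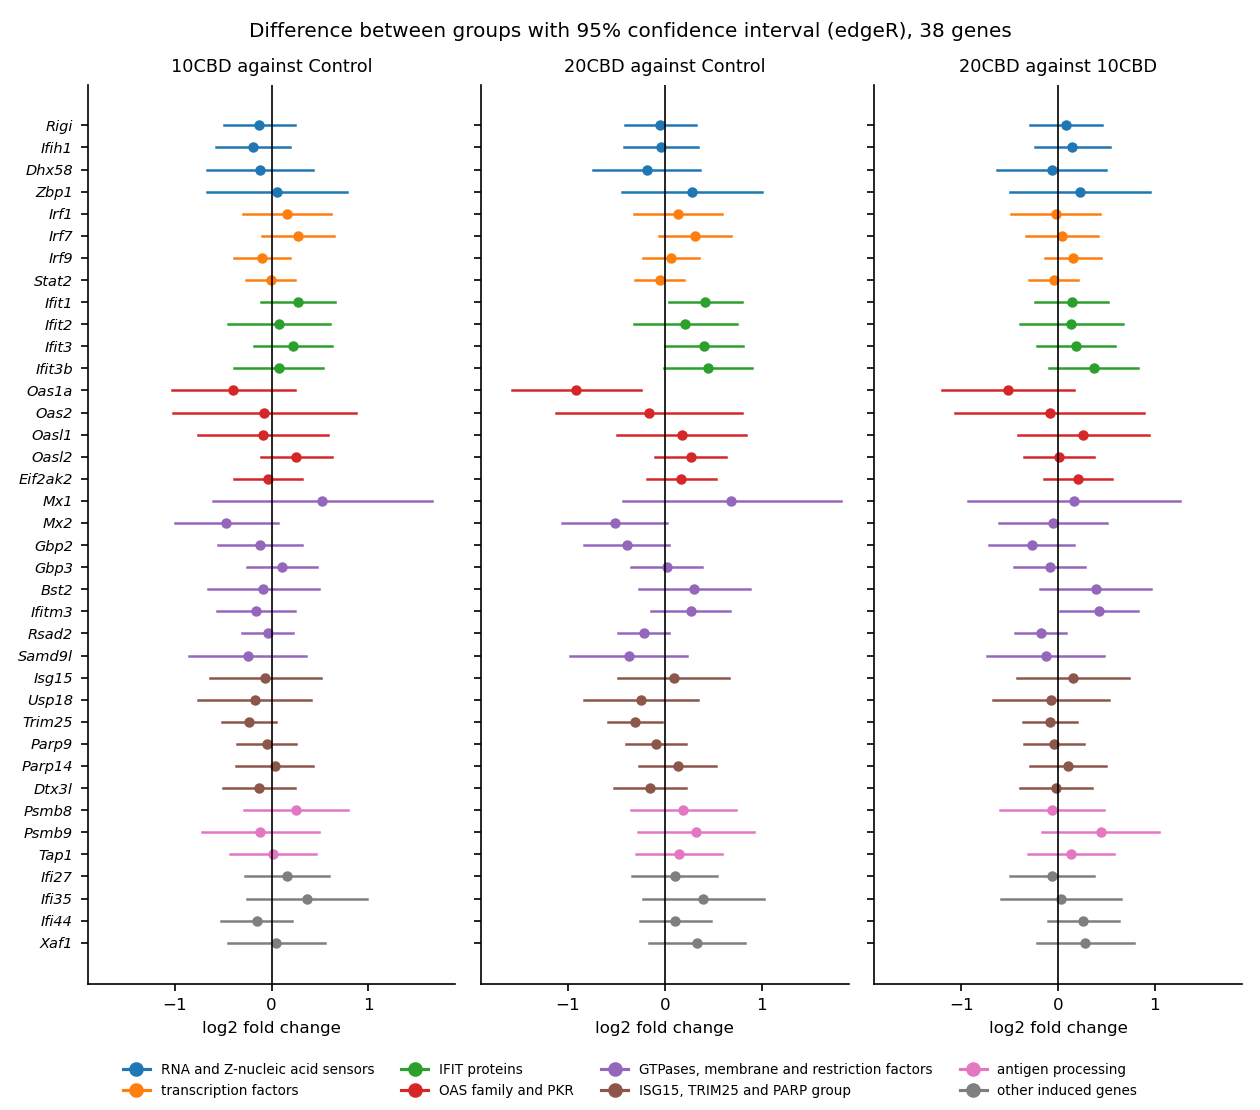
Log2 fold change of each of the 38 genes with its 95% confidence interval from edgeR, in panels for 10CBD against Control, 20CBD against Control and 20CBD against 10CBD, coloured by role. Intervals that leave out 0 belong to Oas1a, Ifit1, Trim25 and Ifit3 in the middle panel and Ifitm3 in the right one, and none of the 38 passed the adjusted threshold.

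Among the sensors, Rigi encodes the cytoplasmic receptor RIG-I for short viral RNA and was the most abundant per kb at 2.98 CPM per kb. Rigi read 24.3, 22.5, 28.3 and 29.7 CPM in the 4 control mice, 23.1, 25.9, 19.4 and 27.7 in the 10CBD mice and 32.9, 26.7, 18.1 and 23.9 in the 20CBD mice. The groups overlapped fully, and both the highest and the lowest mouse were in 20CBD. The other sensors are Ifih1, the receptor MDA5 for long double-stranded RNA, Dhx58, its helper LGP2, and Zbp1, which binds Z-form nucleic acid. Their levels over the 12 libraries spanned 8.76 to 14.7, 1.02 to 2.27 and 0.761 to 2.37 CPM. The role's median log2 fold change was -0.124 at 10 mg/kg, with 1 of 4 above 0, and -0.043 at 20 mg/kg, also with 1 of 4 above 0.

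Of the transcription factors, Stat2, which acts with IRF9 in a complex that binds interferon promoters, was the most abundant per kb and the steadiest. Stat2 read 19.2, 19, 20.2 and 20.2 CPM in the 4 control mice, 18.7, 20.1, 21.3 and 18.1 in the 10CBD mice and 18, 22.2, 19 and 16.5 in the 20CBD mice. The ranges of the groups were nested, narrowest in Control and widest in 20CBD, and the 95% interval of the log2 fold change was -0.26 to 0.25 at 10 mg/kg and -0.31 to 0.2 at 20 mg/kg. Irf7, the factor that amplifies type I interferon transcription, read 8.32, 6.73, 6.4 and 6.31 CPM in the 4 control mice, 10.7, 8.38, 7.59 and 6.87 in the 10CBD mice and 7.61, 8.5, 10.7 and 7.79 in the 20CBD mice. All 8 treated mice were above 3 of the control mice, with Control 1 inside the treated range, and the mouse highest in each treated group, 10CBD 1 and 20CBD 3, is one of low mitochondrial share. Irf7 had a log2 fold change of 0.27 in 10CBD against Control (SE 0.18, 95% interval -0.1 to 0.65, adjusted p 0.893). It was 0.129 without 10CBD replicate 1 and 0.112 without the 4 low-share libraries. Irf7 had a log2 fold change of 0.32 in 20CBD against Control (SE 0.18, 95% interval -0.06 to 0.69, adjusted p 0.68). For the mean of both doses against Control the log2 fold change was 0.29 (SE 0.15, 95% interval -0.03 to 0.62, adjusted p 0.732). Without the 4 low-share libraries this mean was 0.147. Irf1, an activator of antigen processing genes, spanned 9.52 to 19.3 CPM, and Irf9, the DNA-binding partner of STAT2, 11.5 to 16.1 CPM.

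The IFIT proteins bind viral RNA ends and block their translation, and their 4 genes lie together on chromosome 19. In GRCm39, Ifit1 (ENSMUSG00000034459) is at chr19:34618271-34632174, Ifit3 (ENSMUSG00000074896) at chr19:34560899-34566443 and Ifit3b (ENSMUSG00000062488) at chr19:34585328-34590801, all on the plus strand. Ifit1 read 5.29, 5.39, 5.14 and 5.11 CPM in the 4 control mice, 7.51, 5.34, 5.51 and 6.93 in the 10CBD mice and 5.74, 6.47, 9.18 and 6.61 in the 20CBD mice. The 4 control mice lay within a narrow band, all 4 of the 20CBD group were above it, and of the 10CBD mice 10CBD 2 lay inside it. The highest mouse was 20CBD 3. Ifit1 had a log2 fold change of 0.42 in 20CBD against Control (SE 0.18, 95% interval 0.04 to 0.8, adjusted p 0.537). It was 0.259 without 20CBD replicate 3 and 0.277 without the low-share libraries. The means were 5.23 ± 0.132 CPM (SD, n = 4) in Control and 7 ± 1.5 CPM in 20CBD, with an exact two-sided permutation p of 0.0286, the smallest that 4 mice against 4 can give. Ifit1 had a log2 fold change of 0.28 in 10CBD against Control (SE 0.18, 95% interval -0.1 to 0.65, adjusted p 0.893). Without 10CBD replicate 1 this was 0.177.

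Ifit3, whose protein stabilises IFIT1 on RNA in other mammals, was the most abundant IFIT gene per kb at 6.95 CPM per kb and read 17.9, 21.1, 14.3 and 15.4 CPM in the 4 control mice, 18.3, 18, 15.5 and 28.7 in the 10CBD mice and 19.1, 25.2, 25.9 and 21 in the 20CBD mice. Control 2 lay above 20CBD 1 and just over 20CBD 4, so these groups overlapped, and the highest mouse of all was 10CBD 4. Ifit3 had a log2 fold change of 0.41 in 20CBD against Control (SE 0.19, 95% interval 0.002 to 0.81, adjusted p 0.586). The means were 17.2 ± 3.02 CPM (SD, n = 4) in Control and 22.8 ± 3.27 CPM in 20CBD, with an exact two-sided permutation p of 0.0857. Its close copy Ifit3b read 5.84, 5.63, 4.89 and 4.84 CPM in the 4 control mice, 5.52, 4.95, 3.75 and 8.22 in the 10CBD mice and 6.68, 8.68, 6.06 and 7.45 in the 20CBD mice. All 4 mice of the 20CBD group were above all 4 control mice, while the 10CBD mice ranged from the lowest value to close to the highest. Ifit3b had a log2 fold change of 0.44 in 20CBD against Control (SE 0.21, 95% interval -0.01 to 0.9, adjusted p 0.606). The means were 5.3 ± 0.51 CPM (SD, n = 4) in Control and 7.22 ± 1.13 CPM in 20CBD, with an exact two-sided permutation p of 0.0286. For 20CBD against 10CBD the log2 fold change was 0.37 (SE 0.22, 95% interval -0.09 to 0.83, adjusted p 0.825). Between the doses this was 0.213 without 10CBD replicate 3, 0.608 without 10CBD replicate 4 and 0.207 without the low-share libraries. Ifit2, which binds RNA as well, spanned 7.09 to 19.6 CPM. All 4 IFIT genes had a log2 fold change above 0 in each comparison, though these comparisons share mice and are not independent. The medians were 0.151 at 10 mg/kg, 0.412 at 20 mg/kg and 0.163 between the doses. At 10 mg/kg, Ifit2 and Ifit3b were near 0, at 0.078 and 0.077 (adjusted p by edgeR 0.98 and 0.978). Ifit3 and Ifit3b share sequence, and how reads that match both were handled is not given.

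**Figure D3:**
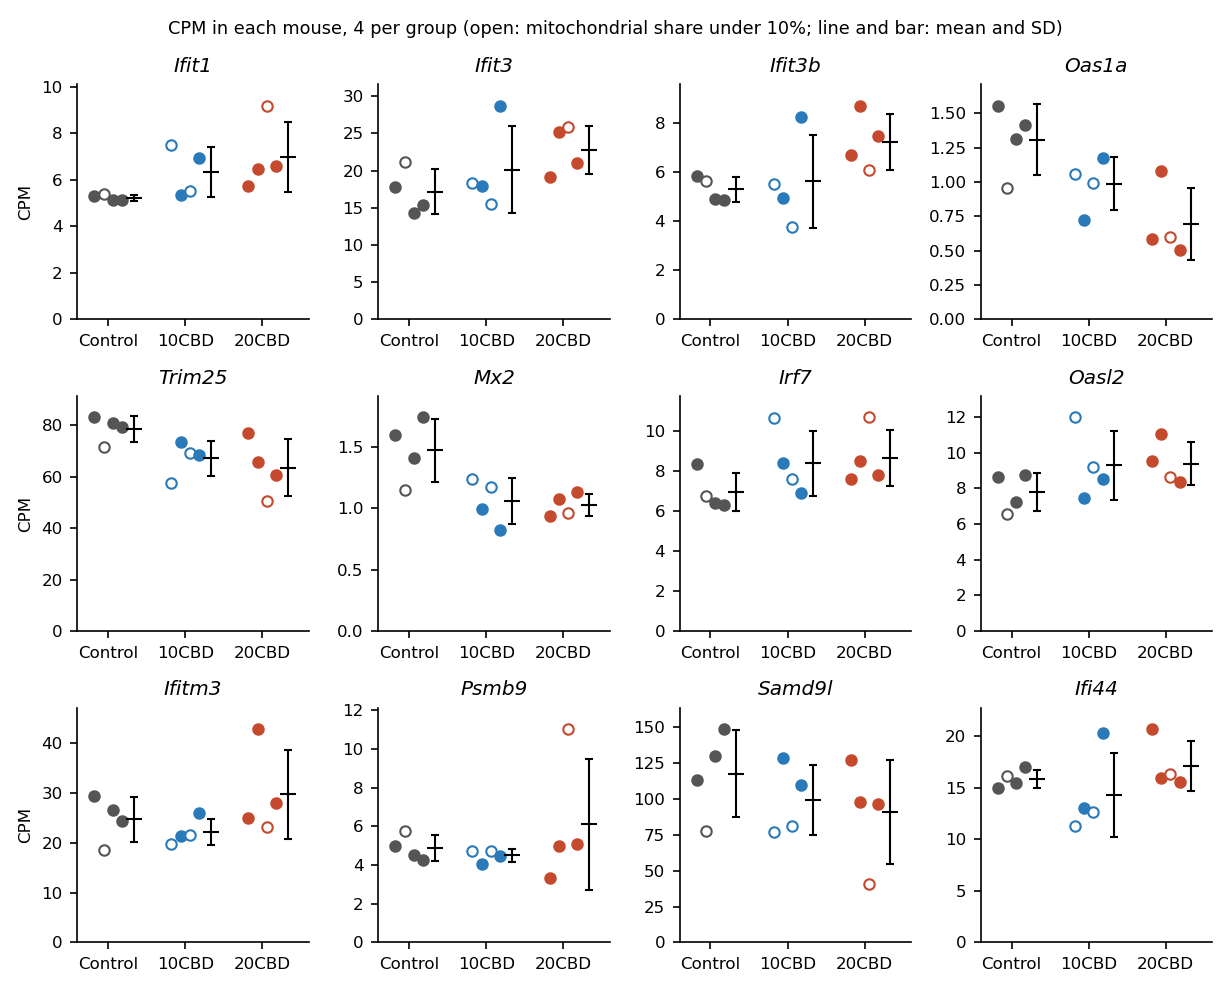
CPM in each of the 12 mice for 12 genes, with 4 points per group, open circles for libraries with under 10% mitochondrial counts, and the group mean with SD beside them. The 20CBD points lie above all control points for Ifit1 and Ifit3b and below them for Mx2, and the other panels show overlap between these groups.

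Promoter sequence is shown for the 3 IFIT genes named above that hold matches to an interferon response motif, beside Isg15, a classic target with adjacent matches. Ifit2 held no match in its window and is not shown. Promoters were read as 300 bases, 250 before and 50 after the annotated start, and searched on both strands for GAAA, any 2 bases and GAAA again, the core of the interferon-stimulated response element (ISRE) bound by the STAT2 complex and IRFs. Of the 39 members, 18 (46.2%) held a match, against 498 of 13763 (3.62%) protein-coding promoters, members included. Among members without an ISRE match in this window were Trim25, Mx2, Samd9l, Ifitm3, Irf7 and Ifit2, and Oas1a held 2. The windows shown are from GRCm39 with starts of GENCODE vM39, and they lie at chr19:34618175-34618234 (Ifit1, plus strand), chr19:34560763-34560822 (Ifit3, plus), chr19:34585159-34585218 (Ifit3b, plus) and chr4:156285304-156285363 (Isg15, minus). Capitals mark ISRE matches on either strand, written 5' to 3' along the gene.
Ifit1: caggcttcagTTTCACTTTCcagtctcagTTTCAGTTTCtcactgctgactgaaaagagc
Ifit3: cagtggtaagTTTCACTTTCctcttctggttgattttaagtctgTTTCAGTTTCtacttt
Ifit3b: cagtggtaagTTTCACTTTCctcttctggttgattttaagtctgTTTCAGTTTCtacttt
Isg15: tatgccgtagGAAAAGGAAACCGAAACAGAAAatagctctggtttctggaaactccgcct
The Ifit1 window covers bases -96 to -37 from the start, that of Ifit3 bases -136 to -77, that of Ifit3b bases -169 to -110 and that of Isg15 bases -60 to -1. The 60 bases of Ifit3 and Ifit3b are identical, with 0 differences. Of the 126 bases after them, 46 differ when compared position by position without gaps, so an inserted or deleted base would raise that count. A match describes the letters only, and binding was not measured in these mice.

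In the OAS family, Oas1a (ENSMUSG00000052776, chr5:121031070-121046449, minus strand) encodes a 2-5A synthetase that activates RNase L. Oas1a read 1.55, 0.954, 1.31 and 1.41 CPM in the 4 control mice, 1.06, 0.726, 0.994 and 1.17 in the 10CBD mice and 0.586, 1.08, 0.6 and 0.508 in the 20CBD mice, from 233 counts over the 12 libraries. Of the 20CBD mice, 3 were below every control mouse, and 20CBD 2 lay between Control 2 and the other controls. Oas1a had a log2 fold change of -0.91 in 20CBD against Control (SE 0.31, 95% interval -1.58 to -0.25, adjusted p 0.42). With the mitochondrial share as a covariate it was -1.004 (adjusted p 0.0963), which passed the threshold. The means were 1.31 ± 0.256 CPM (SD, n = 4) in Control and 0.693 ± 0.26 CPM in 20CBD, with an exact two-sided permutation p of 0.0571. For 10CBD against Control the log2 fold change was -0.4 (SE 0.3, 95% interval -1.03 to 0.24, adjusted p 0.902). Oas1a had a log2 fold change of -0.52 in 20CBD against 10CBD (SE 0.32, 95% interval -1.2 to 0.16, adjusted p 0.831). Without 20CBD replicate 2 this was -0.807. Its level was the lowest of the kept genes per kb, so few counts stand behind each value. Oas2 read 0.588, 1.05, 0.907 and 0.489 CPM in the 4 control mice, 0.84, 0.858, 0.226 and 0.998 in the 10CBD mice and 0.586, 0.838, 0.96 and 0.339 in the 20CBD mice and was spread widely in every group with full overlap. Oas3, not kept and not tested, read 0.126, 0.477, 0.453 and 0.489 CPM in the 4 control mice, 0.221, 0.396, 0.361 and 0.294 in the 10CBD mice and 0, 0.18, 0.36 and 0.226 in the 20CBD mice, with 0 counts in 20CBD 1, which allows a level of up to 0.176 CPM (3 counts).

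Oasl2, an OAS-like gene with a ubiquitin-like tail, read 8.61, 6.58, 7.25 and 8.76 CPM in the 4 control mice, 12, 7.46, 9.22 and 8.51 in the 10CBD mice and 9.55, 11, 8.64 and 8.36 in the 20CBD mice. The treated mice overlapped the controls, and the highest was 10CBD 1. Oasl2 had a log2 fold change of 0.26 in 10CBD against Control (SE 0.17, 95% interval -0.11 to 0.62, adjusted p 0.893). Without the 4 libraries of low mitochondrial share that difference had the opposite sign, at -0.042, and without 10CBD replicate 1 alone it was 0.106. Eif2ak2, which encodes the kinase PKR that halts translation on double-stranded RNA, was the most abundant of its role at 5.14 CPM per kb. Eif2ak2 read 24.9, 21.7, 29.7 and 31.9 CPM in the 4 control mice, 20.7, 30.8, 23.9 and 30.1 in the 10CBD mice and 36.8, 31.7, 26.7 and 26.7 in the 20CBD mice. The lowest mice were 10CBD 1 and Control 2, both of low mitochondrial share, and all groups overlapped. Oasl1, which restrains Irf7 translation, spanned 0.949 to 2.46 CPM.

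Of the membrane and restriction factors, Mx2 (ENSMUSG00000023341, chr16:97336508-97362100, plus strand) encodes a dynamin-like GTPase. Mx2 read 1.6, 1.15, 1.41 and 1.74 CPM in the 4 control mice, 1.24, 0.99, 1.18 and 0.822 in the 10CBD mice and 0.937, 1.08, 0.96 and 1.13 in the 20CBD mice. All 4 mice of the 20CBD group were below all 4 control mice, and of the 10CBD mice 2 lay inside the control range and 2 under it. Mx2 had a log2 fold change of -0.52 in 20CBD against Control (SE 0.25, 95% interval -1.06 to 0.02, adjusted p 0.613). The means were 1.47 ± 0.257 CPM (SD, n = 4) in Control and 1.03 ± 0.0925 CPM in 20CBD, with an exact two-sided permutation p of 0.0286. For 10CBD against Control the log2 fold change was -0.47 (SE 0.25, 95% interval -1 to 0.07, adjusted p 0.872). Without the low-share libraries this was -0.807. Mx2 had a log2 fold change of -0.49 in the mean of both doses against Control (SE 0.21, 95% interval -0.95 to -0.04, adjusted p 0.67).

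Ifitm3 (ENSMUSG00000025492, chr7:140589499-140591282, minus strand) read 29.3, 18.6, 26.6 and 24.5 CPM in the 4 control mice, 19.8, 21.4, 21.6 and 25.9 in the 10CBD mice and 25.1, 42.9, 23.2 and 27.9 in the 20CBD mice. One 20CBD mouse, replicate 2, was far above all others, and the other 3 lay within the control range. Ifitm3 had a log2 fold change of 0.42 in 20CBD against 10CBD (SE 0.19, 95% interval 0.02 to 0.83, adjusted p 0.782). The means were 22.2 ± 2.59 CPM (SD, n = 4) in 10CBD and 29.7 ± 8.96 CPM in 20CBD, with an exact two-sided permutation p of 0.0857. Without that replicate the difference between the doses was 0.2. Samd9l (ENSMUSG00000047735, chr6:3372257-3405056, minus strand) read 113, 77.4, 130 and 149 CPM in the 4 control mice, 77.1, 128, 81 and 110 in the 10CBD mice and 127, 97.6, 40.7 and 96.8 in the 20CBD mice. The 4 lowest values were those of the 4 libraries of low mitochondrial share, in whichever group they stood. Samd9l had a log2 fold change of -0.37 in 20CBD against Control (SE 0.28, 95% interval -0.98 to 0.23, adjusted p 0.789). It was -0.131 without 20CBD replicate 3, -0.24 without Control replicate 4, -0.585 without 20CBD replicate 1 and -0.283 without the 4 low-share libraries. With the mitochondrial share as a covariate it was -0.661 (adjusted p 0.0313), which passed the threshold. The other genes of this role are Mx1 (0.181 to 1.12 CPM), the guanylate-binding GTPases Gbp2 (6.66 to 14.7) and Gbp3 (9.64 to 17), the virion tether Bst2 (5.75 to 16.8) and Rsad2 (37.7 to 57.6), whose product viperin makes a chain-terminating nucleotide. In these 8 genes the median log2 fold change was -0.102 at 10 mg/kg and -0.1 at 20 mg/kg, with 2 and 4 above 0.

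Trim25 (ENSMUSG00000000275, chr11:88890202-88911122, plus strand) was the most abundant gene of the ISG15, TRIM25 and PARP group at 12.1 CPM per kb. Trim25 read 83.1, 71.4, 80.9 and 79.4 CPM in the 4 control mice, 57.5, 73.4, 69.2 and 68.6 in the 10CBD mice and 77.2, 65.6, 50.6 and 60.8 in the 20CBD mice. Control 2 was the lowest control and lay inside the range of both dose groups, while the lowest mice were 20CBD 3 and 10CBD 1. Trim25 had a log2 fold change of -0.31 in 20CBD against Control (SE 0.13, 95% interval -0.59 to -0.03, adjusted p 0.537). With the mitochondrial share as a covariate it was -0.393 (adjusted p 0.0392), which passed the threshold. The means were 78.7 ± 5.09 CPM (SD, n = 4) in Control and 63.5 ± 11 CPM in 20CBD, with an exact two-sided permutation p of 0.0571. For 10CBD against Control the log2 fold change was -0.23 (SE 0.13, 95% interval -0.51 to 0.05, adjusted p 0.883). With the log2 of the mitochondrial share as a covariate this was -0.146, and with its logit -0.148. Isg15 spanned 2.28 to 5.81 CPM and Usp18, the protease that removes ISG15 and damps the receptor, 1.47 to 3.32 CPM. Parp9 and its partner ubiquitin ligase Dtx3l start 681 bases apart on opposite strands and overlap, and they spanned 13.9 to 19.9 and 9 to 16.1 CPM. Parp14, an ADP-ribosyl transferase, spanned 12.3 to 23.7 CPM. Of the 6 genes, 1 had a log2 fold change above 0 at 10 mg/kg and 2 at 20 mg/kg.

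The antigen processing genes lie side by side in the class II region of chromosome 17. Psmb8 and Psmb9 encode catalytic subunits of the immunoproteasome and Tap1 a chain of the peptide transporter that feeds class I molecules. Psmb8 read 6.34, 5.15, 6.15 and 5.6 CPM in the 4 control mice, 9.02, 5.21, 7.54 and 5.81 in the 10CBD mice and 3.81, 7.18, 10 and 5.59 in the 20CBD mice. Psmb9 read 4.96, 5.77, 4.53 and 4.24 CPM in the 4 control mice, 4.73, 4.03, 4.74 and 4.46 in the 10CBD mice and 3.34, 4.97, 11 and 5.08 in the 20CBD mice. Both were highest in 20CBD 3 and lowest in 20CBD 1, and 11 of the 12 Psmb9 values lay between 3.34 and 5.77 CPM. Psmb9 had a log2 fold change of 0.44 in 20CBD against 10CBD (SE 0.28, 95% interval -0.16 to 1.04, adjusted p 0.84). Without 20CBD replicate 3 it was -0.011, so the difference rested on that mouse. Tap1 read 9.45, 13.9, 8.71 and 9.9 CPM in the 4 control mice, 11.4, 9.3, 11.8 and 9.8 in the 10CBD mice and 9.08, 10.8, 17.3 and 9.37 in the 20CBD mice and was also highest in 20CBD 3. Summed over the 3 genes, the role read 20.8, 24.9, 19.4 and 19.7 CPM in Control, 25.2, 18.5, 24.1 and 20.1 CPM in 10CBD and 16.2, 23, 38.3 and 20 CPM in 20CBD, so within each group the library or libraries of low mitochondrial share had the highest sums. Psmb9 and Tap1 start 363 bases apart on opposite strands with overlapping annotation, and the strand setting of the counting is not given.

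Among the remaining induced genes, Ifi27 was the most abundant per kb at 4.42 CPM per kb and read 19.9, 22.2, 15 and 17 CPM in the 4 control mice, 24, 15.6, 23.7 and 19.6 in the 10CBD mice and 14.8, 19.4, 28.6 and 16.8 in the 20CBD mice. The 4 highest values were in the 4 libraries of low mitochondrial share. Ifi44 read 15, 16.1, 15.5 and 17 CPM in the 4 control mice, 11.3, 13, 12.7 and 20.4 in the 10CBD mice and 20.7, 16, 16.3 and 15.6 in the 20CBD mice, with its highest values in 20CBD 1 and 10CBD 4 and overlap between all groups. Ifi44 had a log2 fold change of 0.26 in 20CBD against 10CBD (SE 0.17, 95% interval -0.11 to 0.63, adjusted p 0.848). It was 0.163 without 10CBD replicate 1, 0.481 without 10CBD replicate 4, 0.159 without 20CBD replicate 1 and 0.065 without the low-share libraries. Ifi35 spanned 4.69 to 14.2 CPM and Xaf1, an antagonist of the apoptosis inhibitor XIAP, 2.94 to 6.29 CPM.

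Across mice, the list did not move as one block. Summed over all 39 genes, the level was 607, 536, 609 and 639 CPM in the 4 control mice, 550, 588, 531 and 605 CPM in the 10CBD mice and 616, 625, 533 and 539 CPM in the 20CBD mice. The libraries of low mitochondrial share had the lowest sums of each group, and 20CBD 4 was nearly as low. Samd9l, the most abundant member in CPM, carried part of this: with it left out, 10CBD 1 and 20CBD 3 had higher sums than 10CBD 2 and 20CBD 4. Control 2 and 10CBD 3 still had the lowest sums of their groups without it. Relative to the gene's mean over all libraries, the members' median deviation was highest in 20CBD 2 at 0.165 log2 units and lowest in 10CBD 2 at -0.118. Of the 38 genes, 9 had their highest value in 20CBD 3 and 8 in 20CBD 2, and 7 had their lowest in 10CBD 3. The library 20CBD 3 also held the lowest value of 6 genes, as did 20CBD 4.

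**Figure D4:**
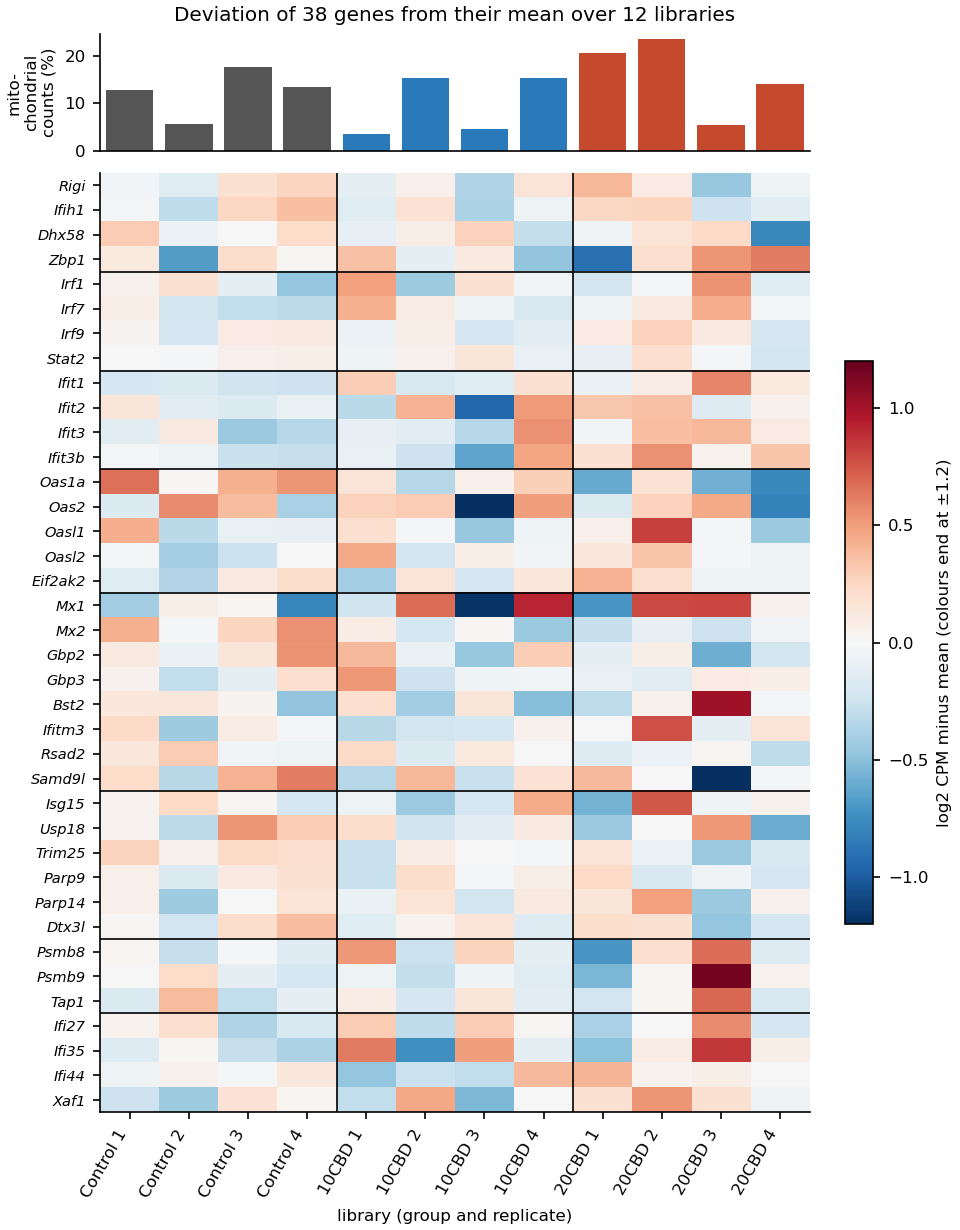
Heat map of log2 CPM of the 38 genes in each library minus the gene's mean over the 12 libraries, ordered by role, under bars of the mitochondrial share of counts in percent. In 20CBD 3, where 9 genes had their highest and 6 their lowest value, the antigen processing genes are high and Samd9l and Rigi low.

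Part of the list followed the mitochondrial share of the library. Comparing the 4 libraries under 10% with the 8 others, as a description with no test since the split comes from the data, 8 of the 38 members (21.1%) did not overlap, against 12.9% of all genes. Higher in the low-share libraries were Irf1 (15 to 19.3 against 9.52 to 13.7 CPM), Bst2 (9.06 to 16.8 against 5.75 to 9.03), Tap1 (11.4 to 17.3 against 8.71 to 10.8) and Ifi27 (22.2 to 28.6 against 14.8 to 19.9). Lower were Samd9l (40.7 to 81 against 96.8 to 149 CPM), Rigi (18.1 to 23.1 against 23.9 to 32.9), Ifih1 (8.76 to 10.3 against 10.5 to 14.7) and Parp14 (12.3 to 15.9 against 16.8 to 23.7). By exon length, the median log2 difference of all genes was 0.085 in the shortest tertile, 0.013 in the middle and -0.111 in the longest. The members' medians in the same bins were -0.048 for 12 genes, 0.026 for 21 and -0.399 for 5. The direction of the whole list was not shared, with 18 members above 0 and 20 below.

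**Figure D5:**
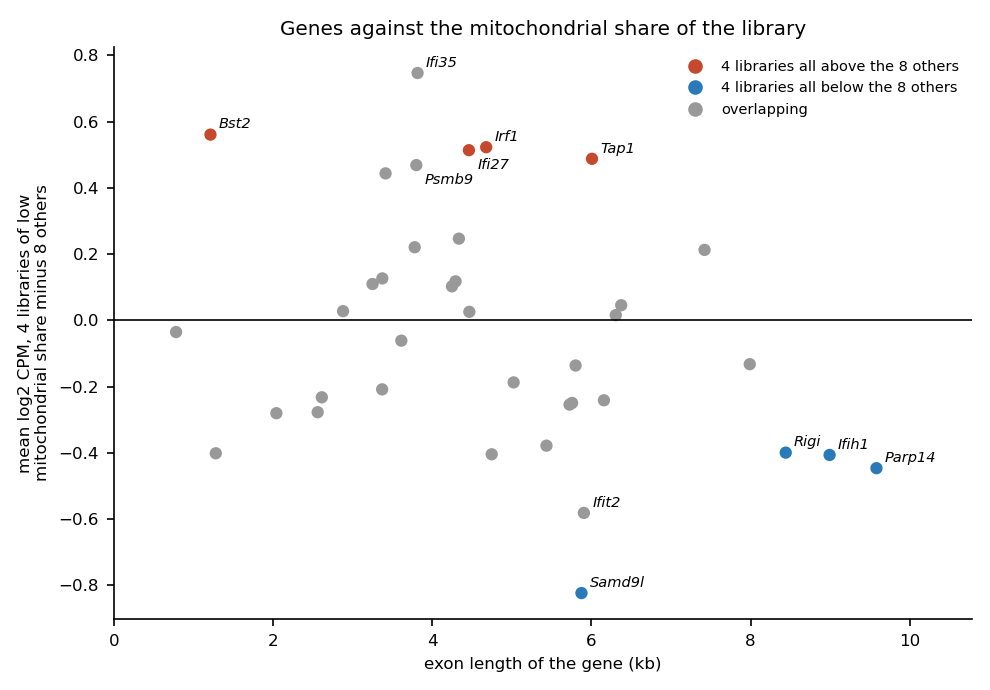
Mean log2 CPM in the 4 libraries of low mitochondrial share minus that in the 8 others (vertical axis) against exon length in kb (horizontal axis) for the 38 genes, coloured by whether the libraries overlap. Bst2, Irf1, Ifi27 and Tap1 lie above 0 without overlap and Samd9l, Rigi, Ifih1 and Parp14 below.

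Without the 4 low-share libraries, which leaves 3, 2 and 3 mice, edgeR called 0 of the 38 in each comparison, where it called 0.148% of all genes at 10 mg/kg, 0.611% at 20 mg/kg, 0% between the doses and 0.383% for the mean of both doses. At an unadjusted p under 0.05 it then counted 4 members at 10 mg/kg (10.5%, against 5.72% of all genes) and 6 at 20 mg/kg (15.8%, against 9.67%). Between the doses it counted 1 member (2.63%, against 5.01%), and for the mean of both doses 8 (21.1%, against 8.26%). With all libraries and the share as a covariate, 3 members were called lower in 20CBD against Control, which is 7.89% of the 38 where 8.08% (1386) of all genes were called. They were Samd9l at a log2 fold change of -0.66 (adjusted p 0.0313), Trim25 at -0.39 (adjusted p 0.0392) and Oas1a at -1 (adjusted p 0.0963). With the log2 of the share in its place, 2 members were called, Trim25 and Samd9l, 5.26% of the 38 against 5.45% (935) of all genes. With its logit the same 2 were called, against 5.96% (1023) of all genes. The share of the members called was thus close to that of all genes with each of these covariates. Over all the alternatives run, the adjusted p ranged from 0.0313 to 0.983 for Samd9l, from 0.0392 to 0.827 for Trim25 and from 0.0963 to 0.773 for Oas1a. The other comparisons had 0 members called with each of these covariates, and with the plain share edgeR called 0.0874% of all genes at 10 mg/kg, 0.361% between the doses and 1.61% for the mean of both doses. With the log2 of the share these were 0.0757%, 0.169% and 1.07%, and with its logit 0.0757%, 0.181% and 1.19%.

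The wider interferon pathway was read from 112 more genes, of which 99 were tested. edgeR called 0 of them in every comparison. At an unadjusted p under 0.05 there were 0 higher and 1 lower at 10 mg/kg, 4 and 2 at 20 mg/kg, 5 and 2 between the doses and 1 and 1 for the mean of both doses. Over all genes that threshold was passed by 5.67%, 8.45%, 6.31% and 7.04% in the same order. In 20CBD against Control the smallest p values belonged to H2-Q4, a class Ib molecule of the major histocompatibility complex, Slfn5, a Schlafen family gene, and Ifngr2, a chain of the interferon gamma receptor. H2-Q4 read 18.4, 20.7, 17.1 and 17.5 CPM in the 4 control mice, 18.8, 16.4, 18.8 and 19.1 in the 10CBD mice and 21.4, 28.1, 26.8 and 21.7 in the 20CBD mice. All 4 mice of the 20CBD group were above all others. H2-Q4 had a log2 fold change of 0.41 in 20CBD against Control (SE 0.13, 95% interval 0.14 to 0.68, adjusted p 0.364). The means were 18.4 ± 1.6 CPM (SD, n = 4) in Control and 24.5 ± 3.44 CPM in 20CBD, with an exact two-sided permutation p of 0.0286. Slfn5 read 63.7, 50, 60.5 and 60.6 CPM in the 4 control mice, 65.4, 66.8, 60.4 and 80.7 in the 10CBD mice and 79.2, 91, 71.1 and 69.3 in the 20CBD mice, with the 20CBD mice all above the controls. Slfn5 had a log2 fold change of 0.4 in 20CBD against Control (SE 0.13, 95% interval 0.13 to 0.68, adjusted p 0.383). The means were 58.7 ± 5.95 CPM (SD, n = 4) in Control and 77.7 ± 9.89 CPM in 20CBD, with an exact two-sided permutation p of 0.0286. Ifngr2 read 15.2, 14, 19.4 and 13.3 CPM in the 4 control mice, 12.7, 16.5, 14.2 and 15 in the 10CBD mice and 20.7, 18.2, 21.7 and 18.9 in the 20CBD mice, and Control 3 overlapped the 20CBD mice. Ifngr2 had a log2 fold change of 0.36 in 20CBD against Control (SE 0.14, 95% interval 0.06 to 0.66, adjusted p 0.503).

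In 10CBD against Control the smallest p values of the pathway were those of Ticam1, the adaptor TRIF, the DNA receptor gene Tlr9 and Ifi209. Their log2 fold changes were -0.26, -1.05 and 0.63, with adjusted p of 0.828, 0.87 and 0.87. Between the doses they were H2-Q4 at 0.42, Ifngr2 at 0.45 and Ifi207 at 0.83, each with an adjusted p of 0.758. For the mean of both doses they were Slfn5 at 0.31 (adjusted p 0.577), the GTPase gene Gbp5 at -0.44 (adjusted p 0.693) and Erap1, which trims peptides for class I, at -0.28 (adjusted p 0.727). The most abundant gene of each list, in mean CPM, was Jak1 among receptors and signalling (108), Mavs among sensing adaptors (43.9), Shisa5 among other induced genes (76.5), Calr of class I loading (744) and Cd74, the class II invariant chain (133). Class II genes, 7 in number, all had a log2 fold change above 0 at 20 mg/kg, with a median of 0.14, and 5 of 7 at 10 mg/kg, with a median of 0.111. Their summed level was highest in 20CBD 3 at 472 CPM and 10CBD 1 at 445 CPM, against 277 to 367 CPM in the other libraries. Of the pathway genes outside the ligands, 1, the DNA exonuclease gene Trex1, had 0 counts in every library. Its annotation overlaps that of Shisa5 on the opposite strand, and how reads in overlaps were divided is not given. The 0 therefore need not mean that Trex1 RNA was absent, and its cause was not tested.

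None of the immune cell markers was called. The macrophage genes C1qa, at 11.4, and Csf1r, at 5.37 CPM per kb, were above the all-gene median of 2.19 CPM per kb. The other macrophage markers were below it, from Mrc1 at 0.768 to C1qc at 2.1 CPM per kb. Of the leukocyte genes, Cd52 at 4.84 and Laptm5 at 2.22 CPM per kb were above it. Ptprc, Coro1a and Cd53 were below, at 0.581, 1.73 and 0.713 CPM per kb. The 5 leukocyte markers summed to 28.8 to 44.4 CPM, with Ptprc highest on average. The 8 macrophage markers summed to 94.7, 97.9, 77.8 and 82.4 CPM in Control, 125, 84.9, 93.4 and 91.3 CPM in 10CBD and 75.1, 90.2, 126 and 90.9 CPM in 20CBD, with Csf1r the most abundant. The highest sums were in 10CBD 1 and 20CBD 3, which also had the highest class II sums. Part of these macrophage sums was Cx3cr1, a chemokine receptor gene, which read 4.7, 5.77, 2.92 and 3.15 CPM in the 4 control mice, 31.2, 3.5, 13.1 and 5.11 in the 10CBD mice and 4.98, 6.47, 21.8 and 6.83 in the 20CBD mice. Within each group, Control included, Cx3cr1 was highest in the library or libraries of low mitochondrial share. Cd68, another macrophage gene, was lowest in 10CBD 1 at 1.24 CPM. Both genes were named after their values were seen. The part of immune cells in the members' values was not tested. Sums of T and NK cell markers (top gene Cd3g) ranged from 3.49 to 7.06 CPM, B and plasma cell markers (Jchain) from 2.72 to 9.12, dendritic cell markers (Itgax) from 3.98 to 6.41 and neutrophil markers (S100a9) from 1.19 to 4.01. Endothelial markers (Plvap) summed to 459 to 598 CPM, fibroblast markers (Pdgfra) to 178 to 274, podocyte markers (Podxl) to 326 to 480 and lymph node and adrenal markers (Star) to 8.22 to 11.2. Loop, distal and collecting duct markers (Slc12a1) summed to 1899 to 3415 CPM and proximal tubule markers (Kap) to 23100 to 30230 CPM. Of the kidney markers, 1 was called: Slc5a2, the proximal sodium-glucose transporter, at a log2 fold change of -0.61 in 20CBD against Control (adjusted p 0.082), with 131 to 162 CPM against 197 to 236 CPM.

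Adipocyte markers, a sign of fat around the organ, differed in level between libraries. The 5 genes (top gene Fabp4) summed to 209, 259, 96 and 229 CPM in Control, 135, 126, 67.8 and 89.7 CPM in 10CBD and 67.9, 114, 92.1 and 104 CPM in 20CBD. Of the 4 tested, all had a log2 fold change below 0 at either dose, with medians of -1.62 and -2.84, and 0 were called by edgeR. The unadjusted p was under 0.05 for 2 at 10 mg/kg and 4 at 20 mg/kg. Their part in the members' values was not tested.

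By position, the 39 members lie on 14 chromosomes, and 6 chromosomes hold 3 or more of them. Ifit3 and Ifit3b start 24429 bases apart, Oasl1 and Oasl2 26297, Gbp2 and Gbp3 60236 and Mx1 and Mx2 73175. Several members overlap another annotated gene on the opposite strand, among them Irf7 with Phrf1 (10721 counts against 1823 for Irf7), Ifi35 with Vat1 (8436 against 1912), Eif2ak2 with Gpatch11 (5382 against 6274) and Ifit1 with Ifit1bl2 (284 against 1402). Irf9 overlaps Rnf31 on the same strand (4097 counts against 3026). How reads in such overlaps were divided is not given, and its part in the values was not tested.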

How the data were processed

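The gene counts were made by the authors and used as deposited: per the submitters' notes, reads were checked with FastQC 0.11.9, trimmed with Flexbar, mapped to GRCm39 with STAR 2.7.5c and counted per gene with HTSeq 1.99.2. The annotation release, the strand setting and any use of molecular identifiers are not given in the sources used here. Summary lines of the counting, such as reads in no feature (12.1% to 19.9% of each library) or ambiguous reads, were left out. Of the gene identifiers, 98.96% matched GENCODE vM39, with 99.952% of the counts.

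Genes kept by filterByExpr were fitted in 1 edgeR 4.0.16 quasi-likelihood model of the 3 groups with trimmed mean of M values (TMM) scaling. Benjamini-Hochberg adjustment ran over all 17163 genes, and a gene was called at an adjusted p under 0.1. DESeq2 1.42.0, limma-voom (limma 3.58.1) and an exact two-sided permutation of mean log2 CPM, with 70 arrangements and a smallest p of 0.0286, were run beside it. Only edgeR was checked on simulated data, with a covariate marking the libraries of low mitochondrial share. The fit without a covariate, DESeq2, limma-voom and the permutation were not checked in this way. Permutation p values are not adjusted.

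The members and lists were chosen with earlier results of these data known. Values in every library are given for the 5 members with the smallest p in each comparison, the 3 highest and 3 lowest per kb, the highest of each role, members called, and the pair Ifit3 and Ifit3b; Tap1 was added after its values were seen. Over all pathway lists together the 3 smallest p values of each comparison are named, and of each list the most abundant gene. Of each cell type list the most abundant gene, those called and those at 0 are named. Some kidney and immune cell markers, among them Slc34a1, Umod, C1qa and Cd52, are named outside this rule. Values per library for pathway genes were added after they were seen, as were the adjustments for the mitochondrial share on the log2 and logit scales. Promoter sequence came from the GRCm39 genome with GENCODE vM39 canonical starts. Intervals and limits at 0 counts cover counting error or the fitted spread only.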

Additional observations from a re-analysis of the deposited data

Results flagged for a closer look

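In each of the 3 groups of 4 mice, each of the 38 kept genes was examined for a single mouse far from the others, by the gap to its nearest neighbour as a share of the group's range. Of 114 such groups, 2 passed the 95% critical value of Dixon for 4 values, where chance alone gives about 1 in 20. Oas1a in 20CBD 2 was high at 1.08 CPM, while the other 3 mice of the group read 0.508 to 0.6 CPM, a gap of 0.839 of the range. Ifi44 in 20CBD 1 was high at 20.7 CPM, against 15.6 to 16.3 CPM in the other 3, a gap of 0.859 of the range. Neither library is one of low mitochondrial share, and the cause was not tested.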

How the results depend on the processing

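The count of members called was 0 in every comparison under every alternative run (other scaling and filters, DESeq2, limma-voom, each mouse left out in turn, a replicate block, the low-share libraries left out), except in 20CBD against Control with the mitochondrial share as a covariate. There it was 3 with the share (8.08% of all genes called), 2 with its log2 (5.45%) and 2 with its logit (5.96%), the last pair chosen after seeing the data; the cause was not tested. Samd9l, Trim25 and Oas1a passed the threshold at -0.661, -0.393 and -1.004 with the share, and Samd9l and Trim25 at -0.555 and -0.358 with its log2 and at -0.569 and -0.363 with its logit.

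With the share, its log2 and its logit in turn, the difference between the doses was 0.195, 0.225 and 0.22 for Ifitm3 and 0.163, 0.159 and 0.159 for Ifi44. With the share, Ifit3b between the doses was 0.238 (0.243 with the logit) and Psmb9 0.673 (0.289 with limma-voom, 0.077 without the low-share libraries). With the log2, Irf7 in 10CBD against Control was 0.178. The cause was not tested.

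Without the 4 low-share libraries, Oasl2 in 10CBD against Control reversed to -0.042 and the members' median in 20CBD against Control was -0.006; the cause was not tested. Leaving out 1 mouse at a time, 0 members were called in each comparison. The median then ranged from -0.078 to 0 in 10CBD against Control, from 0.013 to 0.15 in 20CBD against Control, from -0.018 to 0.115 between the doses and from -0.017 to 0.073 for the mean of both doses. Psmb9 between the doses ranged from -0.011 to 0.643, Oas1a in 20CBD against Control from -1.206 to -0.792, Ifit1 from 0.259 to 0.5 and Trim25 from -0.418 to -0.215. The alternatives were run for the members with the smallest p in each comparison and for Samd9l in 20CBD against Control, not for the other members or the pathway and marker genes. Besides Oasl2 and Psmb9, these kept their sign wherever a value was given, and Oas1a had none under the filter of 10 counts in every library.

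With the replicate block, 0 members were called and the medians were -0.04, 0.111, 0.069 and 0.046 in the order of comparisons above. Replicate numbers were not taken to pair mice, since the labels state no pairing. Of 12 pairs of libraries with the same number, 4 had a correlation over 0.1, and the range was -0.33 to 0.317. These values cannot show whether mice of the same number shared a cage, day or batch. Depth limits Oas1a, Oas2, Mx1 and Oas3, which have 68 to 233 counts in all.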
